A study of Mus musculus with 4 samples.

Results

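Chromatin accessibility around 10 Paneth cell genes was examined in sorted Lgr5-positive intestinal stem cells of the mouse. The genes were Lyz1, Mmp7, Ang4, Itln1, Defa17, Defa24, Nupr1, Mptx1, Habp2 and Wnt3. All accessible regions in the genes or within 100 kb on either side were taken. Of 119965 regions in the series, 171 met this rule. The assay was ATAC-seq, in which Tn5 transposase inserts adapters into open DNA. SISC are stem cells of the small intestine, sorted for Lgr5-EGFP and against CD24. LISC are stem cells of the large intestine, sorted for Lgr5-EGFP alone. Each group has 2 libraries. Both groups came from untreated mice of the genotype Lgr5-EGFP-IRES-creERT2, aged 6 to 12 weeks, and each library used 50000 cells. The reporter sits at the Lgr5 locus, so the sort takes cells in which that locus is active, and it may also take early daughters that still hold EGFP. The labels do not say if replicates were different mice, so their spread may be partly technical.

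Paneth cells sit between the stem cells at the base of small-intestinal crypts. They secrete antimicrobial proteins from large granules, and they supply Wnt and Notch signals to the stem cells. The healthy mouse colon has no typical Paneth cells. These cells carry high CD24 on their surface, so the gate named for SISC removes them, while no CD24 gate is named for LISC. The values describe cells sorted as stem cells, and the part that any remaining Paneth cells had in them was not tested. Tissue and the named CD24 gate differ together between the groups, so they cannot be told apart in any comparison below.

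The peak lists held 83443 to 93220 peaks per library, and their read depth is unknown. Absence from a list means only that no peak was called. Starts of the stem cell markers Lgr5, Ascl2, Smoc2 and Axin2 and of 5 epithelial genes were called in all 4 libraries. Starts of the immune genes Ptprc, Cd3e and Itgam were called in none. Of 5 goblet cell genes, 3 had a start region in all 4 libraries, and Zg16 had none. Starts of the enteroendocrine genes Chga and Neurod1 and of the tuft cell genes Trpm5 and Pou2f3 were called in all 4 libraries. That of the tuft cell gene Dclk1 was called in SISC replicate 2 and LISC replicate 1. The replicate 1 lists held regions on the Y chromosome (6 for SISC, 8 for LISC) and the replicate 2 lists held none, so same-numbered libraries shared that feature across the groups.

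Promoter sequences were listed for 8 of the 10 genes in RefSeq (GRCm38.p6, the same coordinates as mm10), each from 250 bases before to 50 after the gene start. Those of Lyz1 and Habp2 are shown because their regions differed between the groups. Those of Mmp7 and Itln1 were covered in all 4 libraries, and that of Mptx1 in none. Capitals mark matches, on either strand, to CTTTGA (TCF/LEF factors, the nuclear arm of Wnt signalling), AGATAA (bound by Gata factors), CAGCTG (an E-box bound by factors such as Atoh1), TTTATG (Cdx factors) or ACAATG (Sox factors). Sequences run 5′ to 3′ on the strand of the gene.
Lyz1, chr10:117292819-117293118, minus strand: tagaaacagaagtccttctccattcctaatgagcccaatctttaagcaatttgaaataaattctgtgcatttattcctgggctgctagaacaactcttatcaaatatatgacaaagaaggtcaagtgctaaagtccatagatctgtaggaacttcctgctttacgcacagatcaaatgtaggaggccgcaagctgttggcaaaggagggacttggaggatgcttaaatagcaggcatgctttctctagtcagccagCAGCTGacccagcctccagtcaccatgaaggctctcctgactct
Habp2, chr19:56287662-56287961, plus strand: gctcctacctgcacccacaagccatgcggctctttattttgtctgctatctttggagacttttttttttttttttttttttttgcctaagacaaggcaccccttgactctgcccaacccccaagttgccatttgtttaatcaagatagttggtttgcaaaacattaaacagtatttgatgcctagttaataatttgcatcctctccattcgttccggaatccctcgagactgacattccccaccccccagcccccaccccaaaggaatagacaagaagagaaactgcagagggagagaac
Mmp7, chr9:7691840-7692139, plus strand: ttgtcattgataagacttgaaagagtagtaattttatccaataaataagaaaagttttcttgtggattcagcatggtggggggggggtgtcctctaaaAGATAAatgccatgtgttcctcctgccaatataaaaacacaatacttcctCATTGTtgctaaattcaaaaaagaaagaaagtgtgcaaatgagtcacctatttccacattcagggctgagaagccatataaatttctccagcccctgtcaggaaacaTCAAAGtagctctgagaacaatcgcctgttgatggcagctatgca
Itln1, chr1:171535245-171535544, minus strand: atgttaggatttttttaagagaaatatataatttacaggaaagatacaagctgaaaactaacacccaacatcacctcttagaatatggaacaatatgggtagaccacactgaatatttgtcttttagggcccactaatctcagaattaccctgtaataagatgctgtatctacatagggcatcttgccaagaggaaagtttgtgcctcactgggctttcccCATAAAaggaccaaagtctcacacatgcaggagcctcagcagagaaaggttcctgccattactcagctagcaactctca
Mptx1, chr1:174330268-174330567, plus strand: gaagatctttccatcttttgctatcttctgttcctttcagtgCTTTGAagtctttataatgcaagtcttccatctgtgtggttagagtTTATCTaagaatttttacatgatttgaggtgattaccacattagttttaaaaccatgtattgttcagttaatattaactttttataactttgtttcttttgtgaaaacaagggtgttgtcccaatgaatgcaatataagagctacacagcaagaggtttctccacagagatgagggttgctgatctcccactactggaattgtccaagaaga

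The Mmp7 promoter held CTTTGA on its reverse strand 5 bases past the first base of the gene, AGATAA 152 bases before it and ACAATG on its reverse strand 102 bases before it. The Lyz1 promoter held CAGCTG 6 bases past the first base. The Itln1 promoter held TTTATG on its reverse strand 29 bases before the first base. The Mptx1 promoter held CTTTGA 208 bases before the first base, and AGATAA on its reverse strand 162 bases before it. No match was found in the windows of Habp2, Wnt3 or Ang4, and that of Nupr1 held CAGCTG. Among 32851 promoter windows of 300 bases, 16.0% held CTTTGA, 11.2% AGATAA, 16.3% CAGCTG, 11.9% TTTATG and 12.6% ACAATG. A match is a description of the letters and not a shown binding site.

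Taken over the windows of all 10 genes, more regions were called in SISC than in LISC. SISC replicates 1 and 2 had 123 and 147 of the 171 regions, and LISC replicates 1 and 2 had 106 and 101, so the groups did not overlap. The means were 135 ± 17.0 for SISC and 104 ± 3.54 for LISC (SD, n = 2 each), a difference of 31.5 regions. An exact two-sided permutation test over libraries gave p = 0.333, which is the smallest p that 2 against 2 libraries allow. The genes were chosen with earlier results of these data known, so the test gives no independent support for the difference. With only the regions nearest to these genes the difference was 3.5. Over all regions of the genome the SISC and LISC means were 84547 ± 9211 and 85947 ± 317 (SD, n = 2 each), so the SISC mean was not the higher there.

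Regions were then sorted by the libraries that held them. SISC-only regions were called in each SISC library and absent from each LISC list, and LISC-only regions were the converse. The 10 genes had 27 SISC-only and 9 LISC-only regions, or 15.8% and 5.26% of their regions. Across the genome the shares were 7.96% for SISC-only and 10.2% for LISC-only. Another 80 regions (46.8%) were called in all 4 libraries, against 48.2% of all regions. The remaining 55 were called in other combinations, and of 36 called in a lone library 22 came from SISC replicate 2. Without SISC replicate 1 the SISC-only count was 50, or 29.9% of the regions beside 17.7% genome-wide, and without LISC replicate 2 the LISC-only count was 14, or 8.28% beside 16.1%. No test was made on these counts, because the regions of a library are not replicates.

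**Figure D1:**
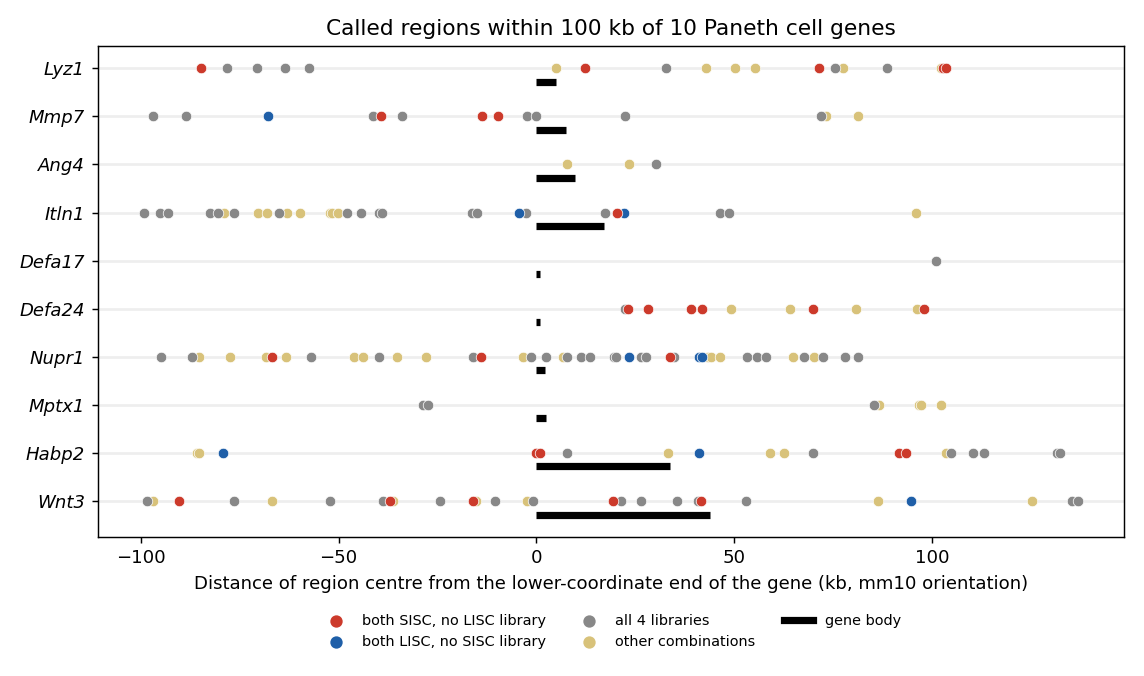
Positions of called regions (points) along the 10 genes, with a row for each gene; the horizontal axis is the distance in kb of the region centre from the lower-coordinate end of the gene, black bars are gene bodies, and colours give the libraries that called the region. The 27 SISC-only regions lie mostly at Defa24, Lyz1, Wnt3 and Habp2, while Defa17 has a lone region at the edge of its window.

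By gene, 5 of 10 had more SISC-only than LISC-only regions, 1 had more LISC-only regions, and 4 were even. Of all 21883 protein-coding genes, 34.5% were of the first kind and 32.2% of the second. Defa24 had 6 SISC-only and 0 LISC-only regions, Lyz1 5 and 0, Wnt3 5 and 1, Habp2 4 and 2, and Mmp7 3 and 1. Nupr1 had 3 of each, Itln1 had 1 SISC-only and 2 LISC-only regions, and Ang4, Defa17 and Mptx1 had neither kind. The median gene of the 10 had 3 SISC-only and 0.5 LISC-only regions, and the median of all protein-coding genes was 1 of each. Without SISC replicate 1, 8 of the 10 genes had more SISC-only regions and 0 had more LISC-only regions. In that setting 17.7% of all regions were SISC-only, beside 7.96% with all libraries. Without LISC replicate 1 or without LISC replicate 2, 2 genes had more LISC-only regions. There 16.2% and 16.1% of all regions were LISC-only, beside 10.2% with all libraries. Shares over all genes are not given for these settings, so these gene counts have no baseline. Without SISC replicate 1 the net count of SISC-only minus LISC-only regions was 8 for Lyz1 and for Wnt3, 4 for Mmp7, 3 for Nupr1 and 3 for Mptx1. Without LISC replicate 1 it was 1 for Habp2 and for Nupr1 and -1 for Ang4 and for Mptx1. Without LISC replicate 2 it was 1 for Mmp7 and -2 for Nupr1, and without SISC replicate 2 it was 4 for Habp2 and -1 for Nupr1.

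**Figure D2:**
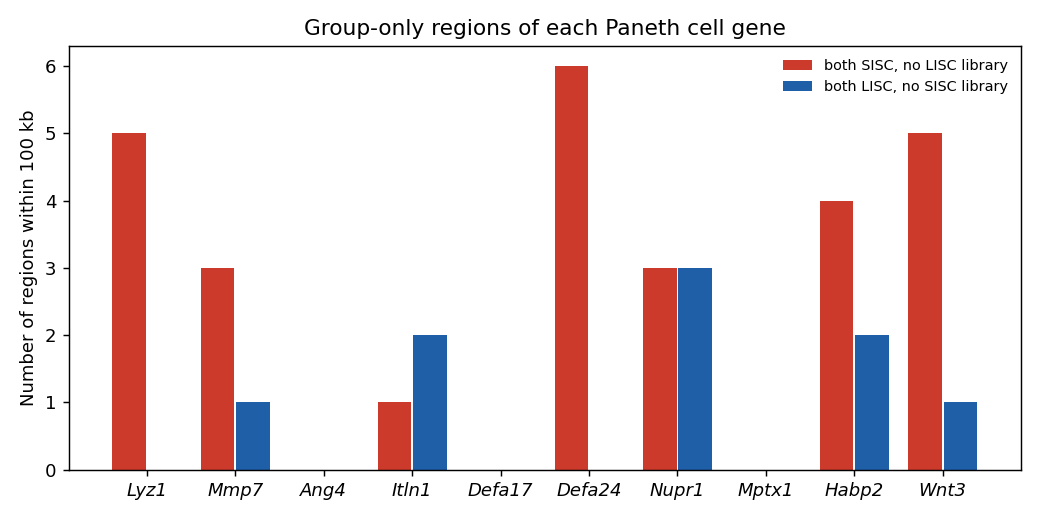
Number of SISC-only (left bar) and LISC-only (right bar) regions within 100 kb of each gene. Defa24, Lyz1 and Wnt3 have 6, 5 and 5 SISC-only regions, and no gene has more than 3 LISC-only regions.

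These windows also take in neighbouring genes. Of the 27 SISC-only regions, 20 lay nearer to another protein-coding gene, as did 6 of the 9 LISC-only regions. The regions nearest to the Paneth cell genes themselves numbered 34, of which 7 were SISC-only and 3 LISC-only. Those 7 belonged to Lyz1, Itln1, Nupr1, Habp2 and Wnt3.

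At the gene starts, 4 of the 10 genes (Mmp7, Itln1, Nupr1 and Wnt3) had a region within 1 kb in all 4 libraries, as did 62.1% of all protein-coding genes. Another 4 (Ang4, Defa17, Defa24 and Mptx1) had none in any library, as did 32.4% of all genes. Habp2 had start regions in SISC only, a pattern found for 1.28% of all genes. No member had a start region in LISC only, which was found for 0.621% of all genes. For Defa17 and Defa24 the annotation used here gives no strand, so either gene end was allowed. The SISC libraries had 6 of the 10 starts each, LISC replicate 1 had 4 and LISC replicate 2 had 5. Without LISC replicate 2, starts in SISC only numbered 2, with Lyz1 added.

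**Figure D3:**
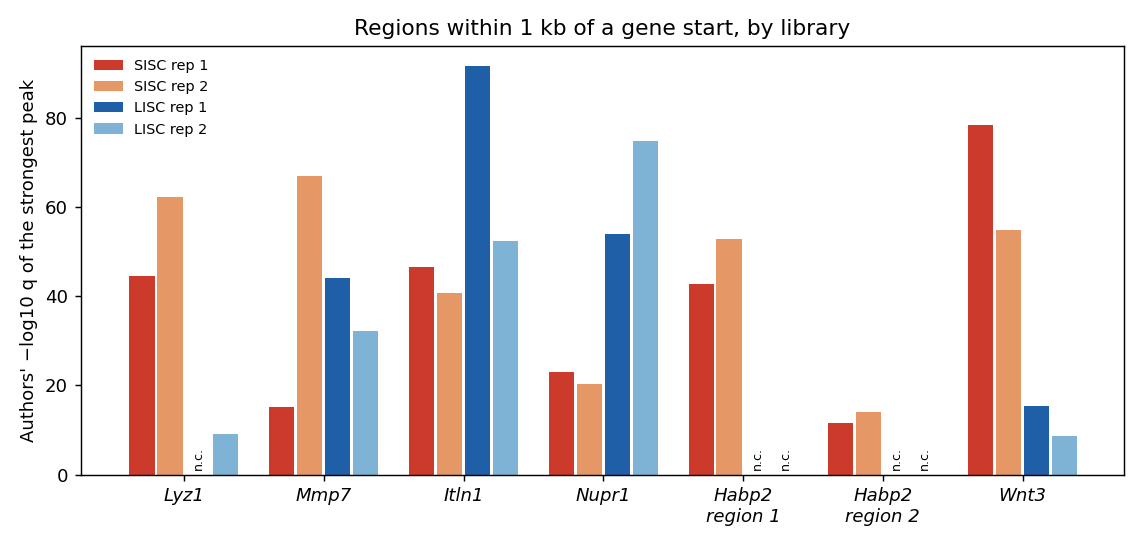
Authors' −log10 q of the strongest peak in each region within 1 kb of a gene start, as bars for SISC replicates 1 and 2 and LISC replicates 1 and 2; n.c. means not called. Habp2 was called in SISC alone, Lyz1 lacks a call in LISC replicate 1, and Wnt3 reaches 78.5 and 55.0 in SISC against 15.3 and 8.56 in LISC.

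The antimicrobial products come first. Lyz1 encodes the lysozyme of Paneth cell granules, which cleaves bacterial cell walls. The region over its start (chr10:117292562-117293140), which contains the printed promoter, had a −log10 q of 44.6 and 62.3 in SISC replicates 1 and 2. In LISC it was not called in replicate 1 and had a −log10 q of 9.09 in replicate 2. The authors' fold enrichments over local background were 8.81 and 9.75 in SISC and 3.36 in LISC replicate 2. The call was thus stronger in each SISC library than in LISC, where it was weak or missing. Without LISC replicate 2 the start counts as SISC-only. The peak summits lay 65 and 93 bases upstream of the gene start in SISC and 25 bases upstream in LISC replicate 2.

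A SISC-only region lay 7.06 kb upstream of Lyz1, with a −log10 q of 14.0 and 13.4, and was the closest region beyond that of the start. Of all protein-coding genes, 1.41% had as many SISC-only regions as Lyz1 with no LISC-only region. The strongest SISC-only region of the window (chr10:117202377-117203697) had a −log10 q of 60.0 and 51.4. It lay 84.1 kb from Lyz1 and 11.4 kb from Yeats4, a chromatin reader gene, so its link to Lyz1 was not tested. The other 3 SISC-only regions lay 66.2 to 98.2 kb away on the side of Cpsf6, with −log10 q of 5.85 to 17.7, and 2 of them, at 97.7 and 98.2 kb, stood just inside the window. Lyz2, the neighbouring macrophage-type lysozyme gene, had no start region in any library and shared 15 of its 17 regions with Lyz1.

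Defa17 and Defa24 encode alpha-defensins, small membrane-disrupting peptides also called cryptdins in the mouse. Neither had a region in the gene or within 20 kb. The lone region in the window of Defa17 lay 99.7 kb away and is also the closest to Defa24, at 21.0 kb. It had a −log10 q of 249 and 290 in SISC and of 85.6 and 42.5 in LISC. It was therefore called everywhere, and the 2 SISC values stood above both LISC values.

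No region was called at any of the 28 Defa genes listed in this cluster of 710 kb on chromosome 8, nor within 1 kb of them. The stretch without a call ran from 19186098 to 21756468, or 2570 kb, and held 46 protein-coding genes. The median stretch between regions was 5.40 kb, and of 119831 such stretches 47 were at least as long. Genes of the cluster are near-identical copies, and no source used here says how reads that match several places were treated. The absence of calls at Defa17 and Defa24 is therefore uncertain and equal in the 4 libraries.

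The calls near Defa24 lay on the side of the beta-defensin genes. All 11 regions of the window were above the gene, between 21.0 and 96.5 kb away, and each SISC library had 9 of them and each LISC library 1. Of the 11, 6 were SISC-only, and 0.717% of all genes had as many with no LISC-only region. The region at chr8:21762494-21763181 had a −log10 q of 98.1 and 92.7 in SISC. That at chr8:21803818-21805140 had 95.2 and 88.7, and that at chr8:21831933-21832914 had 54.8 and 59.2. None was called in LISC. The first and second were nearest to Defb1, an epithelial beta-defensin gene, and the third lay 0.637 kb from Defb50. Of the 3 weaker ones, with −log10 q of 10.8 to 20.5, that at 40.8 kb covered an end of Defb1. None of the 11 was nearest to Defa24 itself, and within 20 kb its count of SISC-only regions was 0.

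Ang4 encodes angiogenin 4, a microbicidal ribonuclease. It had 3 regions, and 15.3% of all genes had fewer. A weak region inside the gene, 1.94 kb from its start, was called in SISC replicate 2 and LISC replicate 2 with −log10 q of 7.24 and 5.45. The sole region called in all 4 libraries lay 20.0 kb away, with a −log10 q of 21.8 and 7.80 in SISC and of 168 and 128 in LISC. Here the LISC values were the higher in each library.

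Itln1 encodes intelectin 1, a lectin that binds microbial sugars and that goblet cells also make. The region over its start (chr1:171535050-171535711) had a −log10 q of 46.5 and 40.8 in SISC and of 91.6 and 52.5 in LISC. The values did not overlap and LISC was the higher. Past the downstream end of the gene, at 1.95 kb, a region had 5.67 and 8.96 in SISC and 81.4 and 65.9 in LISC. A neighbouring region at 3.94 kb was LISC-only, with 75.5 and 42.7. A further LISC-only region lay 4.83 kb from the gene on the upstream side, with 28.5 and 9.65, and a SISC-only region at 3.07 kb had 5.67 and 7.24. All 3 group-only regions of Itln1 were thus within 5 kb, and the LISC-only ones were the stronger. Their balance of 1 to 2 changed direction without SISC replicate 1 (net 4 towards SISC) and without LISC replicate 1 (net 1 towards SISC).

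Mptx1 encodes a mucosal pentraxin, a lectin-like protein of the gut lining. Its window held 7 regions, and the closest were 26.8 and 28.4 kb away, on the upstream side of the gene. The closer had a −log10 q of 175 and 105 in SISC and of 143 and 85.4 in LISC, so the groups overlapped. The other had 10.4 and 6.49 in SISC and 79.5 and 65.8 in LISC, and the groups did not overlap. Neither the gene nor its printed promoter was covered in any library.

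Enzymes and a stress factor follow. Mmp7 encodes matrilysin, the protease that activates alpha-defensins in mouse Paneth cells. Its start region (chr9:7691855-7692345) had a −log10 q of 15.2 and 67.0 in SISC and of 44.0 and 32.2 in LISC. The SISC libraries lay on either side of the LISC libraries, so no direction was seen. A region 1.93 kb upstream had 74.6 and 89.4 in SISC and 52.0 and 59.6 in LISC. By percentile within the strongest peaks of each list the groups overlapped, with 68.2 and 72.1 in SISC and 56.0 and 70.7 in LISC. Farther upstream, at 9.26 and 13.6 kb, were 2 SISC-only regions with −log10 q of 33.1 and 16.1, and of 15.3 and 7.24. Both were nearer to Mmp20, an enamel protease gene, and their link to Mmp7 was not tested. The third, with 34.1 and 8.38, lay inside Mmp20, and the LISC-only region of the window, with 8.39 and 7.46, lay 67.7 kb away. The strongest peak of the window, 63.9 kb away towards Tmem123, had 692 and 508 in SISC and 839 and 422 in LISC.

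Habp2 encodes a secreted serine protease that binds hyaluronan. SISC-only regions covered the first base of its annotated span (chr19:56286865-56287307) and its listed start (chr19:56287504-56288595). The first had a −log10 q of 42.8 and 52.9 in SISC, and the second, which contains the printed promoter, had 11.6 and 14.0. No LISC library had a call there. An intragenic region 6.56 kb past the start was called in all 4 libraries, with 104 and 100 in SISC and 46.1 and 40.7 in LISC. The gene was thus not without calls in LISC. Another 2 SISC-only regions lay 57.6 and 59.6 kb past the gene, inside Nrap, a muscle gene, with 41.3 and 32.1, and with 12.1 and 19.1. LISC-only regions stood 78.9 kb before it, with 52.0 and 12.0, and 7.12 kb past it, with 5.02 and 12.0.

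Nupr1 encodes a small stress-induced nuclear protein. Its window was the most crowded, with 43 regions and 9 neighbouring protein-coding genes, and 95.2% of all genes had fewer regions. Its start region (chr7:126625346-126625930) had a −log10 q of 23.0 and 20.4 in SISC and of 54.0 and 74.9 in LISC, and the LISC values were the higher. The strongest LISC-only region lay 39.1 kb away inside Sgf29, with 103 and 46.3. The other 2 LISC-only regions lay 21.1 kb away near Sgf29, with 25.4 and 13.1, and 38.7 kb away inside it, with 5.59 and 11.3. The 3 SISC-only regions were weak. That 13.8 kb away, which was nearest to Nupr1 itself, had 14.7 and 16.2. Those at 31.5 kb, inside Sgf29, and 66.7 kb, inside Eif3c, had 10.6 and 10.0, and 6.14 and 5.26.

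Wnt3 encodes the Wnt ligand by which Paneth cells sustain stem cells. The region over its start (chr11:103772320-103774526) had a −log10 q of 78.5 and 55.0 in SISC and of 15.3 and 8.56 in LISC. The groups were apart, with SISC the higher. Wnt9b, a neighbouring ligand gene, extends over this start (103727362 to 103775272), so the region may belong to either gene. Within Wnt3 itself 2 regions were SISC-only. That 19.2 kb past the start had a −log10 q of 22.1 and 19.0, and that at 41.3 kb had at most 9.20. In the window of Wnt3 another 3 SISC-only regions lay upstream, of which the strongest, 36.6 kb away inside Wnt9b, had 55.1 and 59.2. That at 15.8 kb, also inside Wnt9b, had 12.3 and 13.1, and that at 89.9 kb, inside Gosr2, had 6.81 and 40.0. The LISC-only region lay 50.7 kb past the gene, inside Nsf, with at most 13.9. Of all genes, 5.22% had 5 or more SISC-only regions.

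Regions called in all 4 libraries were compared by rank, since a −log10 q depends on the depth of its library. Each value was placed among the 83443 strongest peaks of its own list and given as a percentile. The Wnt3 start stood at percentiles 69.4 and 58.9 in SISC and 20.3 and 11.7 in LISC. The region 40.4 kb into the gene stood at 73.6 and 59.4 in SISC and at 7.25 and 9.89 in LISC. Of 14 such regions at Wnt3, 10 ranked higher in each SISC library than in each LISC library and 2 ranked lower. Across the genome these shares were 33.5% and 23.2%. All 5 shared regions that touch the gene ranked higher in SISC. The 2 that ranked higher in LISC lay past the gene, inside Nsf, where a further shared region ranked higher in SISC. Of the 10 that ranked higher in SISC, some lay nearest to Gosr2, Wnt9b or Nsf.

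**Figure D4:**
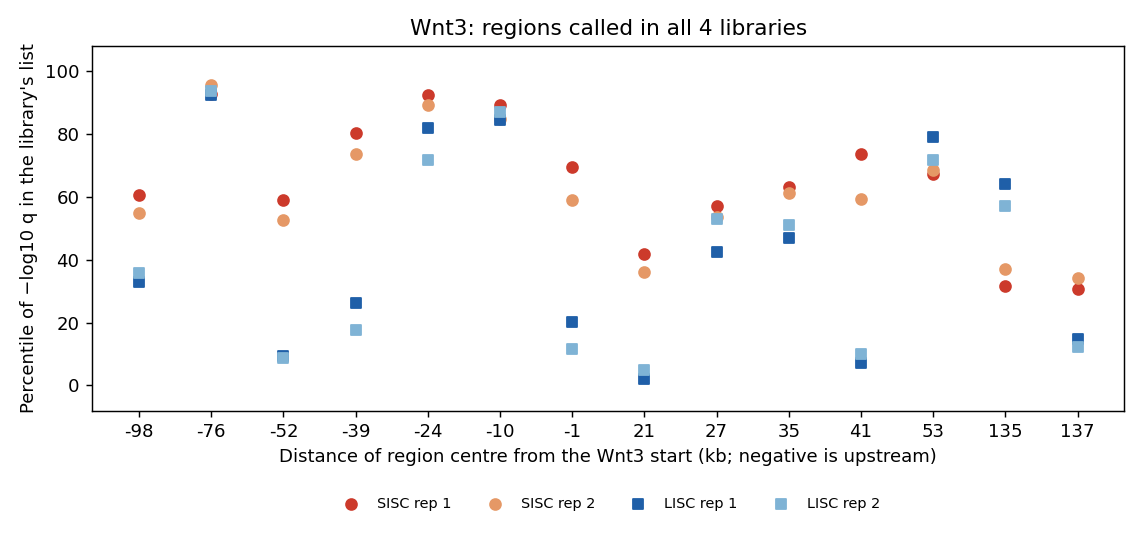
Percentile of −log10 q (vertical axis, 0 to 100, within the 83443 strongest peaks of each list) for the 14 regions at Wnt3 called in all 4 libraries, ordered by distance from the Wnt3 start in kb; circles are SISC and squares LISC replicates. SISC circles lie above LISC squares at 10 of the 14 positions and below them at 2.

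The strongest regions of most windows belonged to neighbours and were shared. For Lyz1 it lay at Yeats4, with a −log10 q of 392 and 330 in SISC and of 338 and 230 in LISC. For Nupr1 it lay at Slx1b and Bola2, with 510 and 412 in SISC and 432 and 227 in LISC. For Wnt3 it lay 75.7 kb upstream at Gosr2, with 305 and 318 in SISC and 303 and 183 in LISC. That of Itln1, at Alyref2, was likewise called in all 4 libraries.

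Over all 10 genes, 35 of the 80 shared regions ranked higher in each SISC library and 20 in each LISC library, beside the same genome-wide shares of 33.5% and 23.2%. Counts were 4 and 1 for Lyz1, 10 and 6 for Nupr1, 6 and 6 for Itln1, 2 and 2 for Mmp7, and 1 and 1 for Habp2 and for Mptx1. The percentile of the Lyz1 start, which was not shared, was 55.3 and 62.4 in SISC and 12.8 in LISC replicate 2.

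Other genes of the Paneth lineage were taken from a list of 34, of which 33 were in the gene table and Pla2g2a was not matched. Of these, 9 had more SISC-only than LISC-only regions within 100 kb, 12 had more LISC-only regions and 12 were even, beside 34.5% and 32.2% of all genes. Without SISC replicate 1 these counts were 19 with more SISC-only and 5 with more LISC-only regions. The share of SISC-only regions over the genome was then also higher, at 17.7% beside 7.96% with all libraries. No share over all genes is given for that setting. The median was 1 of each kind, as over all genes. Among 16 secreted products 5 had more SISC-only and 1 had more LISC-only regions. Secreted-product genes with more LISC-only regions numbered 2 without SISC replicate 2 and 2 without LISC replicate 1. Those with more SISC-only regions numbered 7 without SISC replicate 1. Reg3g, Reg3b and Reg3a, which encode antibacterial lectins of the small intestine, had 6, 5 and 5 SISC-only regions and no LISC-only region, and as neighbours on chromosome 6 they have overlapping windows. Reg3b was the sole gene of the list with a start region in SISC only. Mptx2 and the 8 alpha-defensin genes had no group-only region.

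Of 5 transcription factors of the secretory lineage, 0 had more SISC-only and 4 had more LISC-only regions, beside 34.5% and 32.2% of all genes. Without SISC replicate 1, when 17.7% of all regions were SISC-only, the counts were 2 and 2. They were 0 and 5 without SISC replicate 2, 0 and 4 without LISC replicate 1, and 0 and 2 without LISC replicate 2. The size of the count thus depended on the library left out, and the balance was even only without SISC replicate 1. Gfi1, which within the secretory lineage favours goblet and Paneth over enteroendocrine fate, had 3 LISC-only regions, and Atoh1, the switch to secretory fate, had 2. Sox9, which Paneth cells need to form, also had 2, and none of these had a SISC-only region. Their starts were called in all 4 libraries. Spdef, a factor of goblet and Paneth cell maturation, had a start region in LISC only, as did 0.621% of all genes. Among 6 ligands, Wnt9b (5 SISC-only and 1 LISC-only regions, 24 of its 28 regions shared with Wnt3) and the Notch ligand gene Dll1 (2 and 0) had more SISC-only regions. Dll4 (0 and 3), Wnt11 (2 and 4), Tgfa (1 and 3) and Egf (2 and 3) had more LISC-only regions. Without SISC replicate 1, 5 of the 6 ligands had more SISC-only and 1 had more LISC-only regions, and without SISC replicate 2 the counts were 3 and 3. Shares over all genes are not given for these settings. Nod2, a sensor of bacterial wall fragments, had 6 and 1. Ephb3, the receptor that positions Paneth cells, had 1 and 4. Cd24a, which encodes the antigen of the SISC gate, had 4 of each kind.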

How the data were processed

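ATAC-seq peak lists of 4 libraries were used, 1 per library. The submitters' processing notes name MACS2 2.2.7.1, Bowtie2 2.3.4.1, cutadapt 3.4, bedtools and Picard, with mm10 as build. For settings, Tn5 shift, duplicates and multi-mapping reads, nothing is given in the sources used. The authors deposited, for each peak, a fold enrichment (a ratio) over local background, −log10 p and −log10 q, and a score, which is 10 times the −log10 q in nearly every peak. Read counts and depth are unknown, so calls limit the precision.

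Peaks overlapping by at least 1 bp were merged (checked with bedtools 2.31.1 and tested on simulated data). A library had a region when a peak of its list lay in it, and the strongest peak gave the value. Gene positions came from RefSeq (GRCm38.p6), with a start listed for most genes and otherwise either gene end. Percentiles use the 83443 strongest peaks of each list. A two-sided exact permutation test over libraries was made for the number of regions. Python 3.11.15, numpy 2.4.6, pandas 2.3.3 and matplotlib 3.10.9 were used.

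All 10 genes are named, with each region called in 1 group only, start regions and the strongest regions that separate them; of the related genes, those with group-only starts or the most group-only regions, and others of each role named after their values were seen. The members, lists and motifs were chosen with earlier results of these data known. Alternatives were peak thresholds, list lengths, overlap, windows and leaving out each library.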

Additional observations from a re-analysis of the deposited data

How the results depend on the processing

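The SISC-only share near the 10 genes exceeded the genome-wide share, and the LISC-only share lay below it, under every alternative run, from 14.0% beside 7.54% (summit windows) to 29.9% beside 17.7% (without SISC replicate 1) for SISC-only regions. The LISC-only gap was narrower with the strongest 41721 peaks of each list (8.99% beside 9.80%) and with nearest genes only (8.82% beside 10.2%) than in the report (5.26% beside 10.2%). The difference in regions per library kept its sign, from 3.5 with nearest genes only to 44.5 without SISC replicate 1. With replicates of the same number paired (replicate block) the differences were 17 and 46, mean 31.5, with no test; the labels do not say that the numbers pair animals. Of 154 alternative values for counts, 120 stayed within 1.5 times. The net counts of SISC-only minus LISC-only regions per gene were less steady. Of 120 such alternative values, 61 stayed within 1.5 times and 2 changed direction. The cause of the larger changes was not tested where fewer peaks, regions or libraries do not give it. With the strongest 41721 peaks of each list, SISC-only regions numbered 15, shared regions 39, genes with more LISC-only regions 3, starts in every library 1, starts in SISC only 3, and shared regions ranked higher in SISC 14 and in LISC 8. With 20 kb windows the SISC-only, LISC-only and shared counts were 10, 3 and 23, and ranked higher in SISC 10 and in LISC 6. With 50 kb windows they were 17 SISC-only and 43 shared, and 2 genes had more LISC-only regions. There 17 shared regions ranked higher in SISC (39.5% beside 33.5% genome-wide) and 14 in LISC (32.6% beside 23.2%). With the nearest gene alone the SISC-only, LISC-only and shared counts were 7, 3 and 17, with 8 ranked higher in SISC and 5 in LISC. When peaks had to cover 50% of a region, 3 genes had more LISC-only regions and 2 starts were SISC-only. In that setting 19 shared regions ranked higher in SISC (34.5% beside 31.7% genome-wide) and 13 in LISC (23.6% beside 21.5%).

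Leaving out each library in turn gave 31 to 50 SISC-only and 9 to 14 LISC-only regions, 5 to 8 genes with more SISC-only regions and 0 to 2 with more LISC-only regions, and 1 to 2 starts in SISC only. In the related list it gave 8 to 19 genes with more SISC-only and 5 to 15 with more LISC-only regions (19 and 5 without SISC replicate 1). Over all regions the SISC-only share in these settings was 10.5% to 17.7%, beside 7.96% with all libraries. The LISC-only share was 11.4% to 16.2%, beside 10.2%. The net count of Itln1, which was -1, became 4 without SISC replicate 1 and 1 without LISC replicate 1.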
